A study of Bos taurus and Sus scrofa with 10 samples.

Results

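The 10 genes described here are known from the cumulus cells, the somatic cells that surround the oocyte in the follicle, and were followed in oocyte and embryo libraries of cow and pig. They are HAS2, VCAN, TNFAIP6, PTX3, PTGS2, FSHR, STAR, GJA1, GREM1 and SERPINE2. They were chosen by their levels over the 5 stages of these same libraries and taken by symbol: all 10 were found among 20799 cow genes and 8 among 20502 pig genes, and pig HAS2 and SERPINE2 were not analysed here. RNA sequencing of total RNA covered cow (Bos taurus) and pig (Sus scrofa) at 5 stages: oocyte, 2-4 cell, 8-16 cell, morula (where the cells compact) and blastocyst (where the trophectoderm, the outer layer that later forms placenta, surrounds a fluid-filled space). Each stage of each species had 1 library, 10 in all. No group carried a treatment or an allele in the labels. Breed, age, the maturity of the oocytes, whether embryos were made in vivo or in vitro, how cumulus cells were removed and how many oocytes or embryos were pooled are not given in the sources used here. Since levels chose the genes, their levels and differences are descriptions, and with 1 library per group no difference has a replicate check.

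Cumulus cells stay joined to the oocyte by gap junctions, channels through which small molecules pass. After the ovulatory hormone surge the cumulus expands: its cells make hyaluronan, a long sugar polymer, and cross-link it into a matrix with secreted proteins. The oocyte takes part by secreting GDF9 and BMP15, which act on the cumulus cells around it. Several of the genes are not restricted to cumulus cells: prostaglandin synthesis, for example, is also known in the trophectoderm of cow and pig conceptuses.

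Levels are given in RPM, reads per 1000000 reads of the library. RPM is not divided by gene length, so a level compares a gene between stages and not one gene with another. The value of 1 read put the totals between 3003000 reads (pig morula) and 14182000 reads (cow blastocyst). A count of 0 allows up to 3 reads, or 0.212 RPM at the greatest depth and 0.999 RPM at the least. Ranges after a level are 95% Wilson intervals from the read counts. They cover counting error only, since amplified cDNA reads are not independent molecules. A fold given as at least divides the measured level by the level of 3 reads. It leaves out the counting error of the measured level and is not a bound from these intervals. The upper Wilson limit of 0 reads is also higher than 3 reads, at 0.271 RPM beside 0.212 RPM in the cow blastocyst library. The mitochondrial share of reads was 4.40% for the cow oocyte and 30.2% for the cow blastocyst, and between 6.06% and 18.6% in pig, and a larger share lowers the RPM of all other genes. No member's call was lost when levels were scaled to the other genes.

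**Figure D1:**
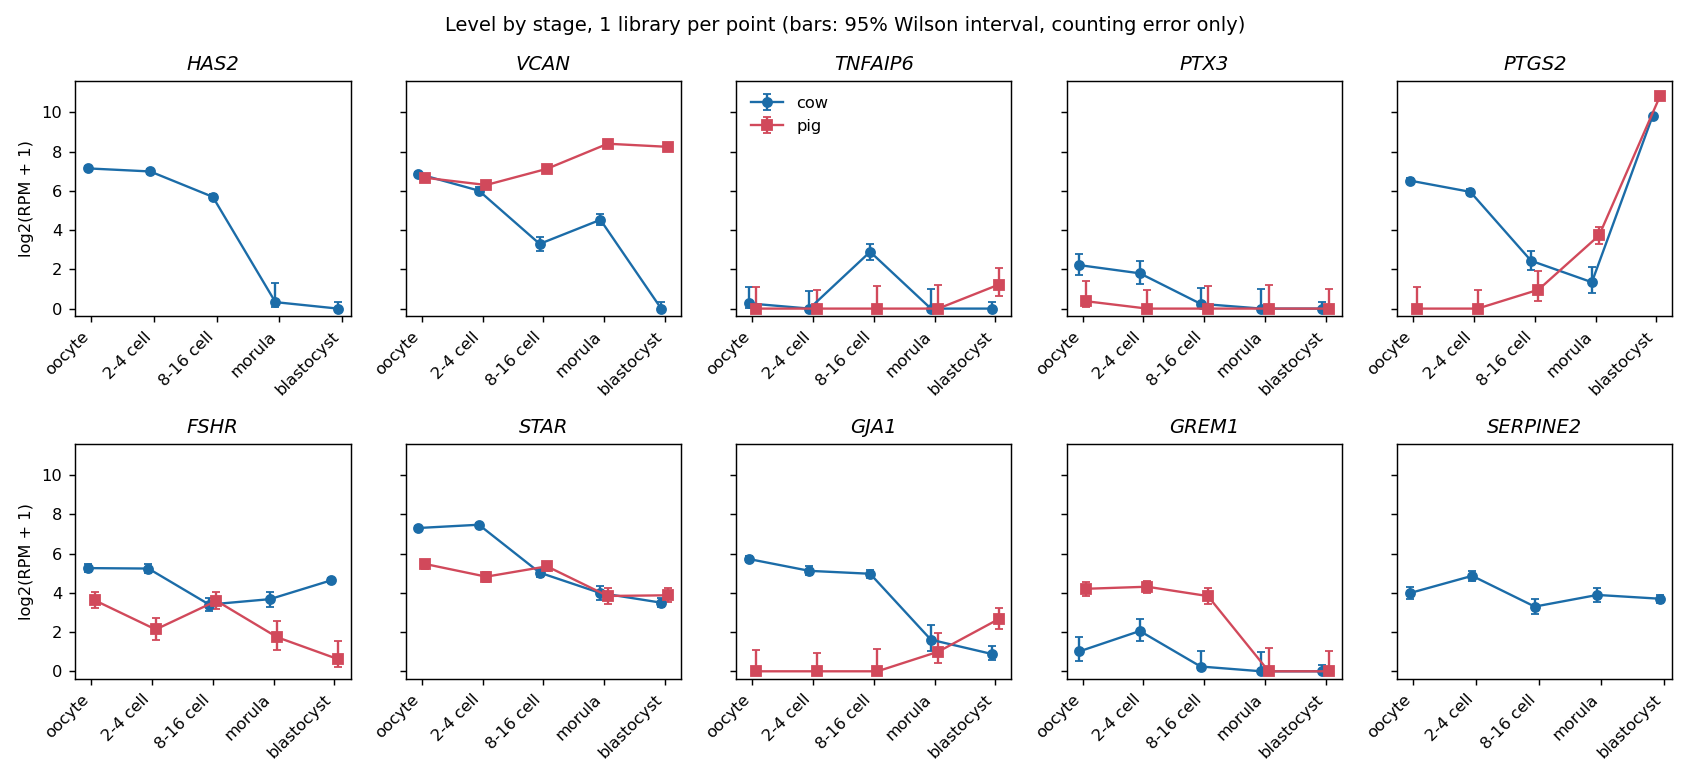
Level of each gene (vertical axis, log2(RPM + 1)) at the 5 stages (horizontal axis) in cow (blue circles) and pig (red squares); each point is 1 library and bars are 95% Wilson intervals. In cow HAS2, VCAN, GJA1 and STAR were lower in the blastocyst than in the oocyte library, and PTGS2 dropped to 1.54 RPM in the morula library and stood at 902 RPM in the blastocyst library. In pig VCAN reached 338 RPM in the morula library and PTGS2 1809 RPM in the blastocyst library.

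Of the matrix genes, HAS2 encodes the hyaluronan synthase that makes the polymer during cumulus expansion. In cow (chromosome 14, 19703611 to 19733798) HAS2 was at 141 RPM in the oocyte library (131 to 152), 126 RPM in the 2-4 cell library (116 to 137), 50.8 RPM in the 8-16 cell library (45.2 to 57.2), 1 read in the morula library and 0 reads in the blastocyst library. The oocyte and 2-4 cell intervals overlapped, and the 8-16 cell library lay below both and far above the morula library. The oocyte level was at least 665-fold higher than the blastocyst level, and 36.1% of it was present in the 8-16 cell library. In such bulk samples fewer cells of a type and less RNA per cell cannot be told apart.

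VCAN encodes versican, a large proteoglycan that binds hyaluronan. In cow (chromosome 7, 85666058 to 85782896) VCAN was at 116 RPM in the oocyte library (107 to 126), 63.5 RPM in the 2-4 cell library (56.5 to 71.4), 8.84 RPM in the 8-16 cell library (6.67 to 11.7), 22.1 RPM in the morula library (17.9 to 27.2) and 0 reads in the blastocyst library. No 2 of these 5 intervals overlapped. The course was not a steady decline, since the morula level was 2.50-fold that of the 8-16 cell library before the gene went undetected. The oocyte level was at least 548-fold higher than the blastocyst level.

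In pig VCAN (chromosome 2, 91287931 to 91811674) took another course: 101 RPM in the oocyte library (90.5 to 112), 77.8 RPM in the 2-4 cell library (69.8 to 86.8), 139 RPM in the 8-16 cell library (126 to 152), 338 RPM in the morula library (318 to 359) and 302 RPM in the blastocyst library (285 to 320). Its highest levels were at the end of the course, where the morula and blastocyst intervals overlapped, and the blastocyst level was 3.002-fold the oocyte level. Pig VCAN shares 34391 bases with another gene row on the opposite strand, which held between 8 and 472 reads per library and was itself highest in the morula library. Handling of strand is not given in the sources used here, and the part of that row in the VCAN values was not tested.

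TNFAIP6, whose product attaches protein chains to hyaluronan, and PTX3, a pentraxin that cross-links that matrix, were low throughout. Cow TNFAIP6 (chromosome 2, 44850892 to 44867293) had 1 read in the oocyte library, 0 reads in the 2-4 cell library, 35 reads in the 8-16 cell library, which is 6.44 RPM (4.63 to 8.96), and 0 reads in the morula and blastocyst libraries. It thus passed 3 reads in a single cow stage, at a level at least 9.53-fold higher than in the 2-4 cell library and at least 8.37-fold higher than in the morula library. Pig TNFAIP6 (chromosome 15, 861896 to 881760) had 0 reads in the first 4 libraries and 5 reads in the blastocyst library, 1.34 RPM (0.573 to 3.14).

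Cow PTX3 (chromosome 1, 111027804 to 111033868) was at 3.65 RPM in the oocyte library (2.31 to 5.77) and 2.48 RPM in the 2-4 cell library (1.38 to 4.44), with 1 read in the 8-16 cell library and 0 reads in the morula and blastocyst libraries. The oocyte level was at least 17.3-fold higher than the blastocyst level. Pig PTX3 (chromosome 13, 97273522 to 97280388) had 1 read in the oocyte library and 0 reads in each of the others. In both species the whole span of PTX3 lies within VEPH1 on the opposite strand. VEPH1 had 20, 18, 1, 2 and 9 reads in the cow libraries in stage order, so its cow reads were also fewer from the 8-16 cell library on, and the part of VEPH1 in the PTX3 reads was not tested.

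PTGS2 encodes cyclooxygenase-2, the inducible enzyme at the entry to prostaglandin synthesis. In cow (chromosome 16, 69263776 to 69271399) PTGS2 was at 91.3 RPM in the oocyte library (83.2 to 100.1), 60.8 RPM in the 2-4 cell library (54.0 to 68.5), 4.42 RPM in the 8-16 cell library (2.97 to 6.57), 1.54 RPM in the morula library (0.705 to 3.36) and 902 RPM in the blastocyst library (887 to 918). It was the one cow member with a low in the middle of the course and a peak at its end. The blastocyst level was 586-fold the morula level and 9.88-fold the oocyte level. In pig (chromosome 9, 127848603 to 127859287) PTGS2 had 0 reads in the oocyte and 2-4 cell libraries and 3 reads in the 8-16 cell library, and was at 12.3 RPM in the morula library (8.94 to 17.0) and 1809 RPM in the blastocyst library (1766 to 1852). The pig blastocyst level was 147-fold the morula level and at least 2036-fold higher than the oocyte level. Both species thus had their highest PTGS2 level in the blastocyst library, and the cow oocyte library held 450 PTGS2 reads where the pig oocyte library held 0.

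FSHR encodes the receptor for follicle-stimulating hormone, a defining gene of granulosa and cumulus cells. In cow (chromosome 11, 31110744 to 31305197) FSHR was at 37.3 RPM in the oocyte library (32.3 to 43.1), 36.7 RPM in the 2-4 cell library (31.5 to 42.8), 9.57 RPM in the 8-16 cell library (7.30 to 12.6), 11.8 RPM in the morula library (8.85 to 15.7) and 23.8 RPM in the blastocyst library (21.4 to 26.4). The lowest levels lay in the middle, and the blastocyst library came back to 63.7% of the oocyte level. In pig (chromosome 3, 91607305 to 91774683) FSHR was at 11.3 RPM in the oocyte library (8.20 to 15.4), 3.38 RPM in the 2-4 cell library (2.02 to 5.68), 11.05 RPM in the 8-16 cell library (7.95 to 15.4) and 2.33 RPM at the morula (1.13 to 4.81), with 2 reads in the blastocyst library. The oocyte and 8-16 cell intervals overlapped each other and lay above the 2-4 cell interval between them.

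STAR encodes the protein that carries cholesterol into mitochondria for steroid synthesis. In cow (chromosome 27, 33016930 to 33024353) STAR was at 157 RPM in the oocyte library (146 to 168), 176 RPM in the 2-4 cell library (164 to 189), 31.7 RPM in the 8-16 cell library (27.3 to 36.8), 14.9 RPM in the morula library (11.5 to 19.2) and 10.3 RPM in the blastocyst library (8.75 to 12.1). The early pair of libraries overlapped, and the oocyte level was 15.3-fold the blastocyst level. In pig (chromosome 15, 48377513 to 48388326) STAR was at 43.2 RPM in the oocyte library (36.8 to 50.8), 27.3 RPM in the 2-4 cell library (22.7 to 32.8), 39.8 RPM in the 8-16 cell library (33.4 to 47.4), 13.3 RPM in the morula library (9.78 to 18.1) and 13.7 RPM in the blastocyst library (10.4 to 18.0). The pig morula and blastocyst levels overlapped and lay below the 3 earlier ones. Pig STAR shares 2367 of its 10814 bases with ASH2L on the opposite strand, which had 1731, 1961, 1178, 127 and 116 reads in stage order against 146, 113, 126, 40 and 51 for STAR. ASH2L was also lower in the morula and blastocyst libraries, and its part in the pig STAR values was not tested.

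GJA1 encodes connexin 43, the main gap junction protein between cumulus cells. In cow (chromosome 9, 30127786 to 30140793) GJA1 was at 51.9 RPM in the oocyte library (45.9 to 58.7), 33.8 RPM in the 2-4 cell library (28.8 to 39.7), 30.4 RPM in the 8-16 cell library (26.1 to 35.4), 2.05 RPM in the morula library (1.04 to 4.05) and 0.846 RPM in the blastocyst library (0.484 to 1.48). The oocyte library was the highest, the next pair overlapped, and the oocyte level was 61.4-fold the blastocyst level. In pig (chromosome 1, 40988528 to 41002189) GJA1 had 0 reads in the oocyte, 2-4 cell and 8-16 cell libraries, 3 reads in the morula library and 20 reads in the blastocyst library, which is 5.36 RPM (3.47 to 8.28). The pig blastocyst level was at least 6.04-fold higher than the oocyte level, so the order of stages ran opposite to that of cow.

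GREM1 encodes gremlin 1, a secreted antagonist of bone morphogenetic proteins that cumulus cells make in response to oocyte factors. The cow row for GREM1 (chromosome 10, 30039413 to 30039967) spans 555 bases and the pig row (chromosome 1, 136617105 to 136629292) 12188 bases, so the cow levels rest on a short model. Cow GREM1 was at 1.01 RPM in the oocyte library (0.433 to 2.37) and 3.15 RPM in the 2-4 cell library (1.88 to 5.29), with 1 read in the 8-16 cell library and 0 reads later. Pig GREM1 was at 17.5 RPM in the oocyte library (13.5 to 22.5), 18.8 RPM in the 2-4 cell library (15.1 to 23.5) and 13.3 RPM in the 8-16 cell library (9.81 to 17.9), with 0 reads in the morula and blastocyst libraries. The 3 early pig libraries overlapped in their intervals, and the 8-16 cell level was at least 13.3-fold higher than the morula level. Neither species had a GREM1 read from the morula on.

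SERPINE2 encodes protease nexin-1, an inhibitor of thrombin and plasminogen activators. In cow (chromosome 2, 112870323 to 112900274) SERPINE2 was at 14.8 RPM in the oocyte library (11.8 to 18.6), 28.2 RPM in the 2-4 cell library (23.6 to 33.6), 8.84 RPM in the 8-16 cell library (6.67 to 11.7), 13.8 RPM in the morula library (10.6 to 18.1) and 11.99 RPM in the blastocyst library (10.3 to 13.9). The 2-4 cell library stood above the other 4. The oocyte, morula and blastocyst intervals overlapped, which made SERPINE2 the member with the flattest cow course among those above 10 RPM.

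Differences between stages were computed on the log2(RPM + 1) scale, which understates the change of low genes, and a gene was compared where it had at least 1 RPM in either library. It was called higher or lower at a difference of 2 or more, a 4-fold change on that scale. From the cow oocyte to the 2-4 cell library 0 of 9 compared members were called, against 0.384% of all compared genes (0.188% higher and 0.196% lower), and the 9 differences lay between -0.86 (VCAN) and 1.04 (GREM1). At the next cow step, to the 8-16 cell library, 4 of 10 members were called, against 27.9% of all genes. Of these 3 were lower, as were 14.9% of all genes: STAR by -2.44, VCAN by -2.71 and PTGS2 by -3.51. TNFAIP6 was higher by 2.90, as were 13% of all genes. From the 8-16 cell library to the cow morula 3 of 8 were called and all 3 were lower, against 12.6% of all genes called, 5.65% lower and 6.92% higher: HAS2 by -5.37, GJA1 by -3.36 and TNFAIP6 by -2.90. From the cow morula to the blastocyst 2 of 6 were called, against 24.2% of all genes (12.5% higher and 11.7% lower): VCAN lower by -4.53 and PTGS2 higher by 8.47. The called drops of the cow members thus fell at different steps: STAR and PTGS2 at the 8-16 cell library, HAS2, GJA1 and TNFAIP6 at the morula library, and VCAN at the 8-16 cell and again at the blastocyst library.

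In pig 0 of 4 compared members were called from the oocyte to the 2-4 cell library, against 6.18% of all genes (3.89% higher and 2.29% lower). At the next pig step, to the 8-16 cell library, 0 of 4 were called, against 5.54% (4.82% higher and 0.725% lower). From the pig 8-16 cell library to the morula 2 of 5 were called, against 24.6% of all genes (12.5% higher and 12.1% lower): PTGS2 higher by 2.77 and GREM1 lower by -3.83. From the pig morula to the blastocyst PTGS2 was the 1 call among 6 compared members, higher by 7.09, against 29% of all genes (14.4% higher and 14.6% lower). The pig calls of members thus came after the 8-16 cell stage, where the shares of all genes called were also larger.

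**Figure D2:**
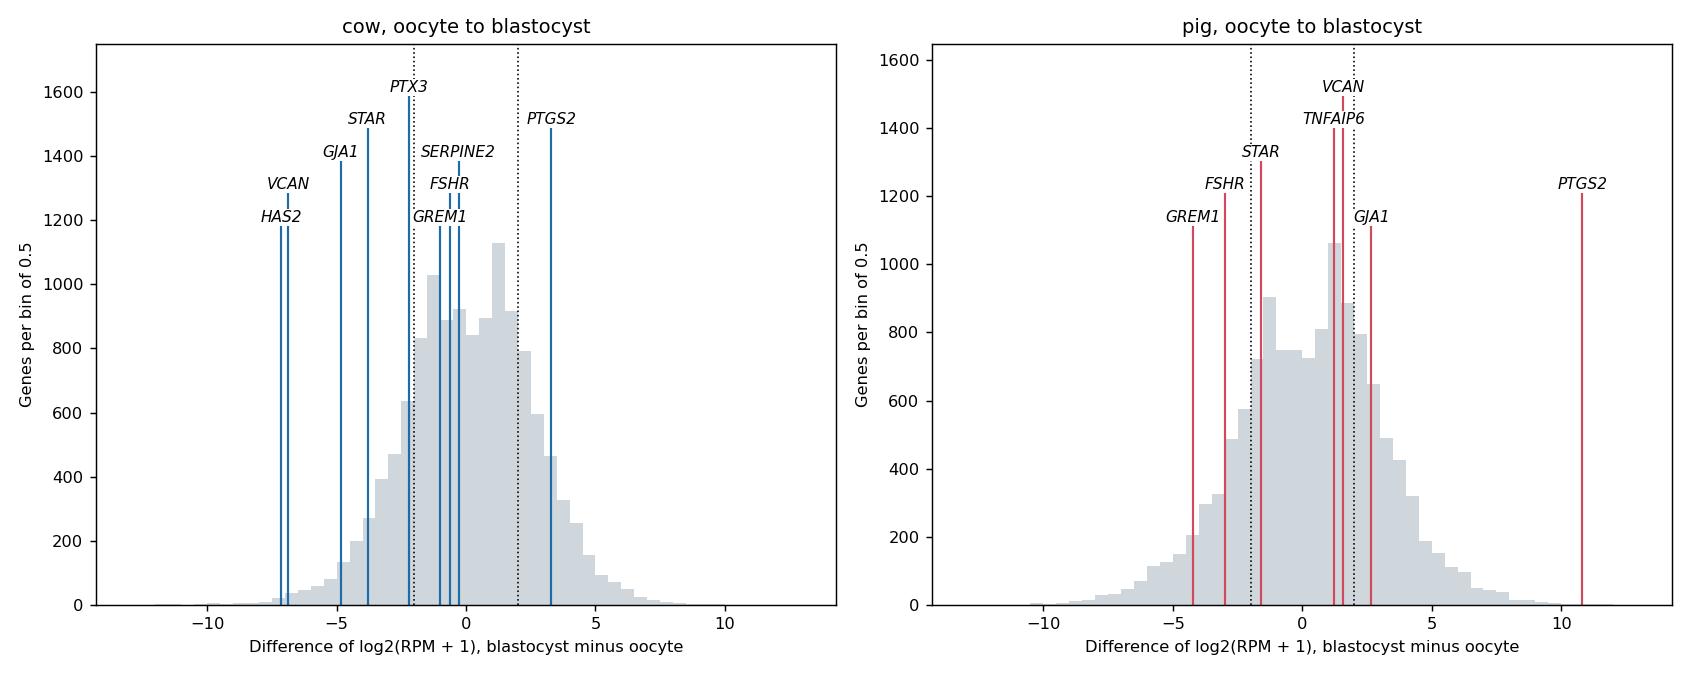
Differences of log2(RPM + 1), blastocyst minus oocyte (horizontal axis), for all compared genes (grey bars, number of genes per bin of 0.5 on the vertical axis) and for the members (labelled lines) in cow (left) and pig (right); dotted lines mark -2 and 2. HAS2 (-7.15) and VCAN (-6.87) lie in the low tail of cow and PTGS2 (10.82) in the high tail of pig.

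When the blastocyst was set against the oocyte, 9 of the 10 cow members could be compared and 6 were called, against 41.3% of all genes. Of these 5 were lower, against 18.8% of all genes: HAS2 (-7.15), VCAN (-6.87), GJA1 (-4.84), STAR (-3.81) and PTX3 (-2.22). PTGS2 was called higher (3.29), against 22.5% of all genes, and GREM1 (-1.01), FSHR (-0.63) and SERPINE2 (-0.28) were not called. In pig 7 of 8 members could be compared and 4 were called, against 47.1% of all genes. GREM1 (-4.21) and FSHR (-2.995) were called lower, against 20% of all genes, and PTGS2 (10.82) and GJA1 (2.67) were called higher, against 27.2%. STAR (-1.59), TNFAIP6 (1.23) and VCAN (1.58) were not called in pig. The median difference was -2.22 for the compared cow members (-1.94 with genes below 3 reads set to 3 reads) beside 0.17 over all compared cow genes. In pig it was 1.23 (0.31 with the floor) beside 0.43. PTGS2 was called in the same direction in both species, and GJA1 was called in opposite directions. Species and library cannot be told apart here, since each species had 1 library per stage and a table of its own.

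The oocyte libraries were then read for genes that define cumulus and granulosa cells, of which FSHR is also a member. Of 11 defining markers, all with a cow row, 2 had reads in the cow oocyte library: FSHR at 37.3 RPM and CYP19A1, the aromatase that makes oestrogens, at 2.64 RPM. The other 9 had 0 reads there, among them INHA (an inhibin subunit), AMH and its receptor AMHR2, NR5A1 (a regulator of steroid genes), CYP11A1 (the first steroid synthesis enzyme), LHCGR (the luteinising hormone receptor) and FOXL2 (a granulosa transcription factor). FOXL2, HSD17B1 and INHBB had 0 reads in all 5 cow libraries, so their absence does not set the oocyte library apart. The same holds for cow INHA and AMH, with at most 2 reads in any library, and NR5A1, with at most 3 reads. In the pig oocyte library FSHR was at 11.3 RPM, CYP19A1 at 4.14 RPM and AMHR2 at 1 read, and the other 4 of the 7 markers analysed had 0 reads. Of these 4, INHA had 0 reads in all 5 pig libraries, INHBB at most 2 reads, and NR5A1 and CYP11A1 at most 1 read. Their absence thus does not set the pig oocyte library apart either. The summed level of the defining markers was 39.96 RPM in the cow oocyte library and 41.0 RPM in the cow 2-4 cell library. It was 12.7 RPM at the cow 8-16 cell stage, 27.2 RPM at the morula and 106 RPM at the blastocyst. In pig the sum was 15.7 RPM in the oocyte library and ranged from 11.11 RPM (2-4 cell) to 30.3 RPM (8-16 cell). FSHR, chosen by its levels, held 37.3 RPM of the cow oocyte sum and 36.7 RPM of the cow 2-4 cell sum. It held 11.3 RPM of the pig oocyte sum. Apart from FSHR and CYP19A1, the defining markers thus had 0 reads or 1 read in the oocyte libraries. Of the members, 9 of 10 were at 1 RPM or more in the cow oocyte library and TNFAIP6 had 1 read. In the pig oocyte library 4 of 8 were at 1 RPM or more (STAR, VCAN, FSHR and GREM1), PTX3 had 1 read, and GJA1, TNFAIP6 and PTGS2 had 0 reads. Of all genes, 10508 of 20799 in the cow and 10045 of 20502 in the pig oocyte library were at 1 RPM or more. The pig member count was close to that share. The members were chosen by their levels, and RPM does not compare one gene with another. In the pig morula library, where VCAN was highest, AMHR2 was at 25.0 RPM, FSHR at 2.33 RPM and CYP19A1 at 1.67 RPM, and the other 4 markers had 0 reads. The part of cumulus cells in these levels was not tested.

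**Figure D3:**
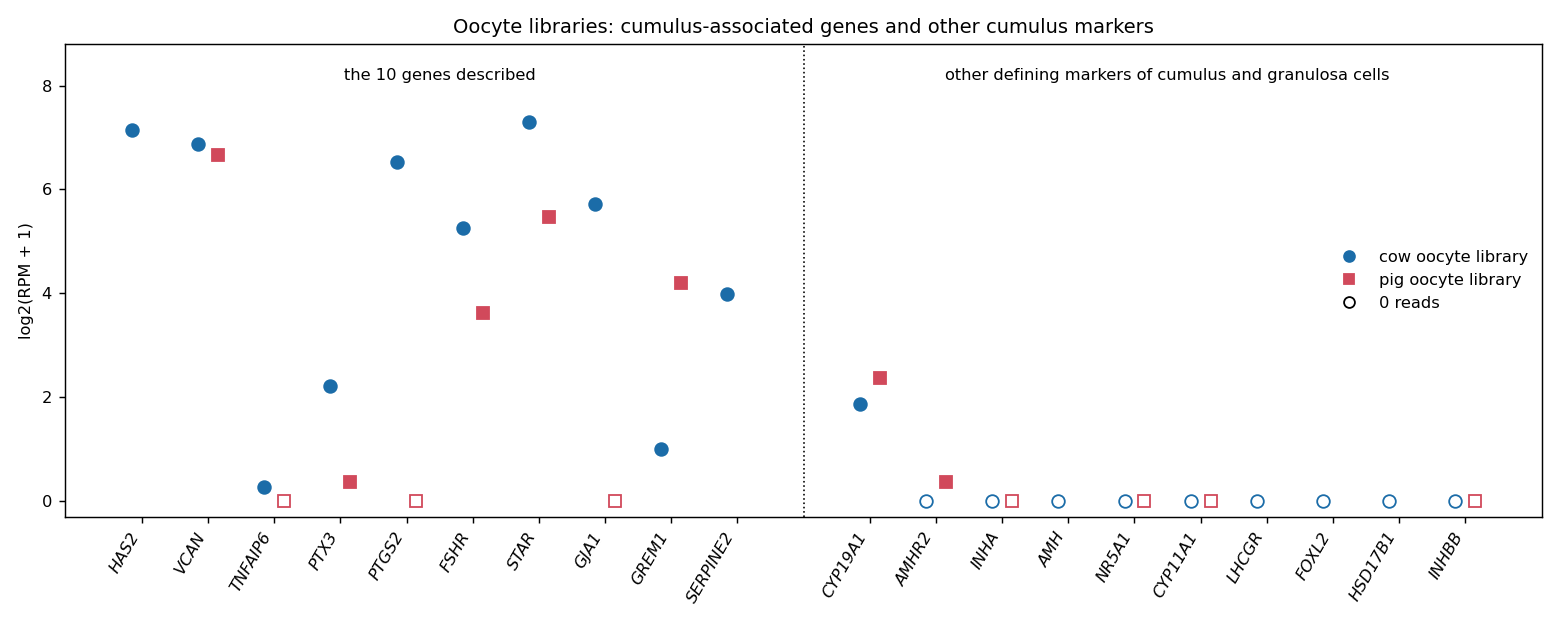
Level (vertical axis, log2(RPM + 1)) in the cow (blue circles) and pig (red squares) oocyte libraries for the 10 genes described (left) and 10 other defining markers of cumulus and granulosa cells (right); open symbols have 0 reads. On the right CYP19A1, at 2.64 RPM in cow and 4.14 RPM in pig, is the highest, and 9 cow and 4 pig markers are open.

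A wider list of 30 cumulus and granulosa genes contains these defining markers except FSHR. Of the 30, 27 were measured in cow, with a summed level of 20.1 RPM in the oocyte library, 7 of them at 1 RPM or more and 15 at 0 reads; CD44, a hyaluronan receptor, was at 4.46 RPM and COL4A1, a basement membrane collagen, at 3.25 RPM. In pig 23 were measured, with 63.95 RPM in the oocyte library, of which PGR, the progesterone receptor, held 47.1 RPM and TIMP3, a protease inhibitor, 7.40 RPM. The same list summed to 3119 RPM in the cow and 6604 RPM in the pig blastocyst library, where the keratins KRT8 and KRT18, which are also on the trophectoderm list, held most of it. Theca and stroma markers summed to 9.33 RPM in the cow and 7.70 RPM in the pig oocyte library, led by PDGFRA (4.46 RPM) and ACTA2 (2.84 RPM) in cow and COL1A2 (5.03 RPM) and DCN (1.48 RPM) in pig. Blood and endothelium markers summed to 101 RPM in the cow oocyte library, of which CSF1R held 81.7 RPM and KDR 10.8 RPM, with PTPRC, HBB and HBA at 0 reads. In pig they summed to 11.5 RPM, with PTPRC at 4.44 RPM and CSF1R at 3.55 RPM.

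Genes of the oocyte itself were a partial check of the label: all 14 measured were at 1 RPM or more in both oocyte libraries, with sums of 6439 RPM in cow and 7842 RPM in pig. ZP2, a zona pellucida protein, was at 3261 RPM and BMP15 at 1181 RPM in cow, and BMP15 was at 2361 RPM and WEE2, a kinase of the meiotic arrest, at 1976 RPM in pig. The check cannot tell an oocyte library from an early embryo library. In the 2-4 cell libraries 14 of 14 were at 1 RPM or more in cow (sum 6035 RPM) and 13 of 14 in pig (sum 4394 RPM). From oocyte to blastocyst 13 of 14 were called lower in each species, with medians of -5.99 in cow (-5.85 with the floor) and -6.46 in pig (-5.97). Trophectoderm markers were at 49.9 RPM in the cow and 68.1 RPM in the pig oocyte library, led by DSP, a desmosome protein (24.3 and 42.3 RPM), with GATA2 at 18.3 RPM in cow and TFAP2C at 19.8 RPM in pig. They were called higher by the blastocyst for 7 of 8 in cow and 8 of 8 in pig, with medians of 4.34 (also with the floor) and 6.01 (5.55).

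The pathway lists that follow give oocyte to blastocyst counts, to be read against all compared genes: in cow 22.5% were called higher and 18.8% lower (median difference 0.17), and in pig 27.2% and 20% (median difference 0.43). Other genes that make, bind or cut hyaluronan were read from a list of 20, of which 9 could be compared in cow and 12 in pig from oocyte to blastocyst. In cow 3 were called higher and 3 lower, with a median of -1.34 (also with the floor), and in pig 5 were called higher and 4 lower, with a median of 0.74 (0.35). CEMIP, which degrades hyaluronan, had 1 read in the cow oocyte library and 44.5 RPM in the blastocyst library. ITIH5, of the inter-alpha-trypsin inhibitor heavy chains, was at 3.85 RPM in the cow oocyte library and peaked at 102 RPM in the morula library. In pig HAS3, another hyaluronan synthase, fell in stage order from 284 RPM through 65.7, 55.6 and 4.995 RPM to 0 reads, and cow HAS3 was at 4.67 RPM in the oocyte library and 0 reads in the blastocyst library. LYVE1, a hyaluronan receptor, went from 23.1 RPM in the pig oocyte library to 0 reads in the morula and blastocyst libraries. HAS1, the remaining synthase, had 0 reads in the cow and 2 reads in the pig oocyte library.

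Of 9 relatives of versican and ADAMTS proteases that cut it, 4 could be compared in each species. In cow 1 was called lower and none higher, with a median of -0.59 (-0.45 with the floor), and in pig 1 was called higher and none lower, with a median of 1.71 (0.80). ADAMTS1, which cuts versican in the expanding cumulus, had 1 read in the cow oocyte library, 0 reads in the 2-4 cell library, 33.0 RPM in the 8-16 cell library and 0 reads later. This single-stage course resembles that of cow TNFAIP6. ADAMTS4 was at 57.0 RPM in the cow oocyte library and 3.03 RPM in the blastocyst library. In pig ADAMTS5 peaked at 30.3 RPM in the 8-16 cell library and ADAMTS20 at 24.6 RPM in the morula library, both from 0 reads in the oocyte library. Of the 5 other pentraxins 2 could be compared in cow, 1 higher (NPTX1, 0 reads to 4.51 RPM) and 1 lower (NPTX2, 8.93 to 0.776 RPM), with a median of -0.01 (-0.35 with the floor). In pig none reached 1 RPM in the oocyte or blastocyst library, and NPTX2 peaked at 6.001 RPM in the 8-16 cell library and APCS at 5.66 RPM in the morula library.

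The genes around PTGS2 in prostaglandin synthesis, breakdown, transport and reception were read from a list of 18. In cow 8 could be compared, 3 called higher and none lower, with a median of 1.18 (also with the floor), and in pig 9 could be compared, 4 called higher and 3 lower, with a median of 0.56 (0.31). PTGES, the inducible synthase of prostaglandin E2 downstream of PTGS2, went in stage order from 0 reads through 1 read, 3 reads and 18.3 RPM to 262 RPM in pig, and from 0 reads in the cow oocyte library to 13.5 RPM in the blastocyst library. PTGR1, a prostaglandin reductase, had 0 reads in the first 3 cow libraries and 138 RPM in the blastocyst library. PTGER4, a receptor for prostaglandin E2, was at 54.5 RPM in the cow 8-16 cell library, with 3.08 RPM at the morula, and had 0 reads in the other 3 libraries. HPGDS, a prostaglandin D synthase, was at 1307 RPM in the pig oocyte library and had 0 reads in the blastocyst library, while cow HPGDS had 1 read in the oocyte library. The pig oocyte library thus lacked PTGS2 reads and held reads of an enzyme that acts on its product, and the blastocyst libraries of both species held PTGS2 and PTGES together.

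**Figure D4:**
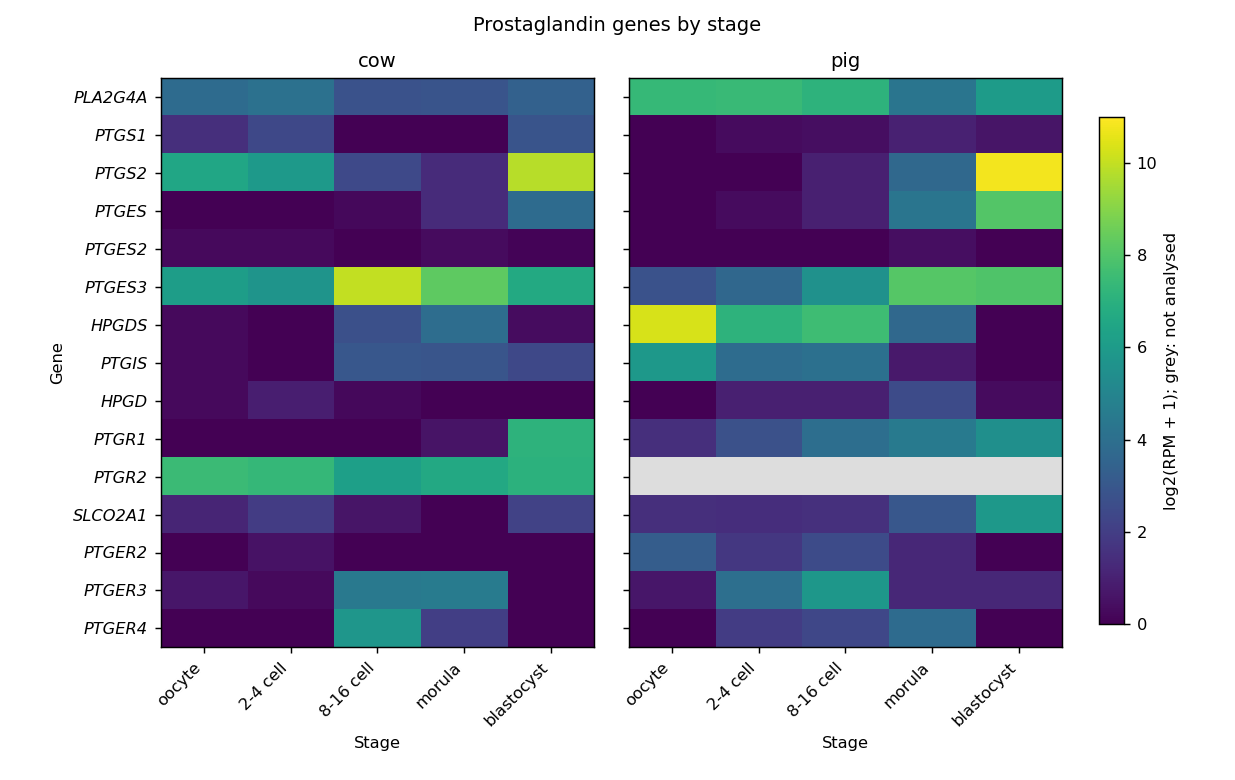
Level of PTGS2 and 14 other prostaglandin genes (rows; colour is log2(RPM + 1)) at the 5 stages (columns) in cow (left) and pig (right), 1 library per column; grey marks a gene not analysed in that species. PTGS2 is brightest in both blastocyst columns (902 and 1809 RPM), and HPGDS is bright in the pig oocyte column (1307 RPM).

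Around FSHR and STAR, 22 genes of gonadotropin reception and steroid synthesis were read. From oocyte to blastocyst 7 of 11 compared cow genes were called higher and 1 lower, with a median of 3.63 (2.94 with the floor), and 8 of 12 pig genes were called higher and 2 lower, with a median of 2.24 (1.87). CYP19A1 went in cow from 2.64 RPM at the oocyte to 48.8 RPM at the blastocyst. NR5A2, a nuclear receptor, peaked in the morula libraries, at 54.6 RPM in cow and 117 RPM in pig, and STARD4, a relative of STAR, peaked at 135 RPM in the pig morula library. STAR itself was called lower in this comparison in cow and was not called in pig.

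The epidermal growth factor network, which relays the ovulatory signal to cumulus cells, was read from 11 genes. In cow 3 of 5 were called higher and 2 lower (median 3.73, or 3.37 with the floor), and in pig 4 of 8 were called higher and 3 lower (median 0.94, or 0.80). HBEGF, a ligand, was at 252 RPM in the cow oocyte and 25.5 RPM in the cow blastocyst, and ERBB3, a receptor, at 2 reads and 41.7 RPM. In pig EREG, the ligand epiregulin, and EGFR, its receptor, both had 0 reads in the oocyte library and reached 56.6 and 145 RPM in the blastocyst library. AREG and EREG had 0 reads in all 5 cow libraries.

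Beside GJA1, 22 other connexins and pannexins were read. In cow 2 of 7 were called higher and 3 lower (median 0.13, also with the floor), and in pig 2 of 8 were called higher and 4 lower (median -1.79, or -1.36). GJC1, connexin 45, was at 301, 342, 65.2, 22.1 and 3.74 RPM in cow and at 647, 714, 538, 106 and 1.61 RPM in pig, in stage order. Thus GJC1 followed the direction of GJA1 in cow and not in pig.

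Around GREM1, 21 bone morphogenetic proteins, receptors and antagonists were read. In cow 9 of 10 were called lower and none higher (median -3.43, or -3.29 with the floor), and in pig 3 of 11 were called lower and 2 higher (median -0.83, also with the floor). The oocyte factors led this list: BMP15 went from 1181 RPM to 0 reads in cow, and for pig from 2361 to 5.09 RPM, and GDF9 from 400 RPM to 0 reads in cow, and for pig from 1252 to 15.3 RPM. BMP15 and GDF9 were still present at 46.2 and 8.46 RPM in the cow morula library and at 79.6 and 63.9 RPM in the pig morula library, where GREM1 had 0 reads. Around SERPINE2, 16 serpins, plasminogen activators and their partners were read. In cow 3 of 13 were called higher and 2 lower (median 0.47, also with the floor), and in pig 3 of 11 were called higher and 1 lower (median 1.52, or 0.86). PLAU, the urokinase that SERPINE2 inhibits, had 1 read in the cow oocyte library and reached 95.5 RPM in the blastocyst library, and SERPINI1 peaked at 69.8 RPM in the cow 8-16 cell library. In pig F2, prothrombin, went from 71.9 RPM to 0 reads and SERPINF1 from 1 read to 53.4 RPM.

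For members with at least 10 RPM in a library, the named genes with the closest course were found by the summed absolute difference of log2(RPM + 1) over the 5 stages. Cow HAS2 was closest to HEY2 (2.28) and MLF1 (2.53), cow VCAN to HACD4 (1.52) and CCDC146 (2.36), and cow STAR to TMEM60 (0.91) and ARID5B (0.96). Cow GJA1 was closest to PCDH7 (1.35) and ZMAT4 (1.77), cow FSHR to POLR2M (0.50) and PLXDC2 (0.70), and cow SERPINE2 to PLEKHH1 (1.02) and UBTF (1.09). The course of cow PTGS2 had no close match: its nearest were CCDC152 (3.55), at 73.6 RPM in the oocyte and 189 RPM in the blastocyst library, and AKAP12 (3.66). In pig PTGS2 was closest to the trophectoderm keratin KRT18 (2.06) and to LGALS1 (2.78), and VCAN to COX6A1 (0.77) and ARPC2 (1.04). Pig STAR was closest to PDE6D (0.74) and ARHGEF7 (0.90), and pig FSHR to PTPRU (0.85) and BANP (1.06). These are distances over 5 libraries among all named genes, a description of course only, and no member was among the 2 closest genes of another.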

How the data were processed

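RNA was sequenced from oocytes and embryos of cow and pig, 1 library per stage. Per the labels' protocols, total RNA was amplified into cDNA with a low-input kit and libraries had 8 cycles of PCR. The submitters' processing notes name Trim Galore 0.6.4, HISAT2 2.1.0 and the builds UMD3.1 (cattle) and Sscrofa11.1 (pig). Annotation, counting and strand handling are not given in the sources used here. Coordinates are those of the deposited tables.

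The deposited values are log2 RPM per gene. The lowest value of a column, 0.9 of a read, stands for 0 reads, and 100% of the others gave whole reads (within 0.01 of a read, or 0.001% of larger values), from which counts and totals were recovered. Genes without reads were set to 0 RPM. Of repeated symbols the row with the highest mean was used. Differences used a pseudocount of 1 RPM. No test was possible with 1 library per group. The steps were tested on simulated counts. Python 3.11.15, numpy 2.4.6 and scipy 1.17.1 were used.

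All members are named; from each pathway list the 2 genes per species with the largest range over stages, and from each marker list the 2 highest in the oocyte library. Some results under this rule are not reported here. HSD17B1, INHBB, FOXL2, AMH, AMHR2, INHA, NR5A1, CYP11A1, LHCGR, HBB, HBA, AREG, KRT8, KRT18, HAS1 and cow EREG, HAS3, PTGES and HPGDS were named after their values were seen. The members and lists were chosen with earlier results of these data known. Alternatives are given in the closing section.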

Additional observations from a re-analysis of the deposited data

Results flagged for a closer look

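For several members the differences in cow and pig had opposite signs, with separate counting intervals in each species, on the log2(RPM + 1) scale. GJA1 was the 1 member past the call threshold in both species. From oocyte to blastocyst GJA1 was lower by -4.84 in cow and higher by 2.67 for pig. Over the same course VCAN changed by -6.87 in cow and had a difference of 1.58 in pig, below the call threshold. From the 2-4 cell to the 8-16 cell library STAR changed by -2.44 in cow with a difference of 0.53 in pig, and VCAN by -2.71 in cow with 0.83 in pig, and neither pig value was called. FSHR had differences of -1.84 in cow and 1.46 in pig at that step, neither of them past the threshold. The difference between species was not tested in any of these, since each species had 1 library per stage. Pig VCAN and pig STAR share bases with a row on the opposite strand. From the 2-4 cell to the 8-16 cell library the median difference of all compared genes was -0.44 in cow and 0.21 in pig. The signs of STAR, VCAN and FSHR at that step are thus also those of the medians. From oocyte to blastocyst the medians were 0.17 in cow and 0.43 in pig.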

How the results depend on the processing

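Members changed were recounted under 8 other settings and 1 more (0 reads kept at 0.9 of a read) chosen after seeing the data. A threshold of 1 in place of 2 moved 8 of 10 counts of members changed: in cow from 0 to 1, 4 to 9 and 3 to 6 over the first 3 steps, and in pig from 0 to 1, 0 to 1, 2 to 5 and 1 to 4 over the 4 steps and 4 to 7 from oocyte to blastocyst. A pseudocount of 0.1 moved the last pig step from 1 to 3, through GJA1 (2.31) and TNFAIP6 (3.85). That pseudocount also called cow PTX3 (-3.18) and GREM1 (-3.52) from the 2-4 cell to the 8-16 cell library, where the count went from 4 to 6. With it cow GREM1 (-3.48) and pig TNFAIP6 (3.85) were called from oocyte to blastocyst. Pig FSHR (-2.20) was then called from the 8-16 cell library to the morula. These moves follow from how each setting treats small differences and low genes. The other settings (scaling to non-mitochondrial gene reads, median scaling, a minimum of 5 RPM, no minimum, equal depth, summed repeated symbols and 0 reads at 0.9 of a read) kept all 10 of these counts within 1.5 times, and no called member reversed its direction under any alternative. A minimum of 5 RPM removed PTX3 from the cow comparison of oocyte and blastocyst. GREM1 from the cow 2-4 cell to the 8-16 cell library also passed the threshold with non-mitochondrial scaling (-2.05) and at equal depth (-2.22), as did pig FSHR from the 8-16 cell library to the morula with median scaling (-2.02).

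Counts over all genes moved most with the threshold and the pseudocount. In cow the 5 comparisons in the order given went from 43, 3448, 1544, 3054 and 5241 to 1428, 8005, 5458, 7382 and 9146 at a threshold of 1, and in pig from 702, 673, 3133, 3640 and 5891 to 3377, 3322, 7526, 7795 and 9468. The pseudocount of 0.1 gave 424, 5248, 2980 and 4685 for the 4 cow steps and 1867, 1844 and 4711 for the first 3 pig steps, and non-mitochondrial scaling gave 78 for the first cow step. The share of called genes that were higher moved with median scaling from 48.8% to 22.0% and from 46.7% to 60.9% for the first 2 cow steps, and from 63.0% to 78.8% and from 86.9% to 76.2% for the first 2 pig steps. For the first cow step equal depth gave 66.7%, a pseudocount of 0.1 gave 68.6% and a threshold of 1 gave 79.6%, and that threshold gave 45.5% for the first pig step. Non-mitochondrial scaling moved the median difference of all genes from oocyte to blastocyst from 0.17 to 0.58 in cow and from 0.43 to 0.53 in pig. Depth limits the low members: at 0 reads up to 3 reads remain possible. No paired analysis was possible because each stage had 1 library.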
